A study of Mus musculus with 26 samples.

Results

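The 34 genes described here encode subunits of the vacuolar proton pump (V-ATPase), its accessory proteins, and proteins of the lysosome and secretory granule membrane, and were chosen by name from the 52636 genes measured. They comprise 9 genes of the membrane sector V0, 10 genes of the cytosolic sector V1, 2 accessory proteins, 5 membrane glycoproteins, 3 LAPTM proteins and 5 ion channels and transporters. The study sequenced RNA from bone marrow myeloid cells of wild-type mice and of littermates lacking neutrophil serine protease 4 (Prss57-/-, labelled NSP4 KO), to find out what the loss of this protease changes in mast cells and their progenitors. Common myeloid progenitors (CMPs; CD117+ CD34+ cells without SCA-1 and lineage markers and with low CD16/32) and granulocyte-macrophage progenitors (GMPs; the same but with high CD16/32) were sorted from female mice, with 4 libraries per genotype and cell type. Bone marrow-derived mast cells (BMMCs, labelled BMMC-P3) were grown from sorted GMPs of male mice in interleukin-3 and stem cell factor, with 5 libraries per genotype. The deletion is present in all cells of these mice. By the study's supplement it removes exon 2 of Prss57 in the strain used here, while another strain, which lacks exons 2 and 3, served only for the imaging of vascular leakage. The labels name neither the strain nor ages nor the animal behind each library, although the study calls its libraries biological replicates, so that p-values measure the spread between these libraries, which may be technical in part.

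The V-ATPase is a rotary motor that pumps protons into lysosomes and secretory granules. Its V1 sector hydrolyses ATP in the cytosol and turns a ring of c subunits in V0, and protons cross the membrane between that ring and the a subunit. The a subunit exists in several forms from different genes, and the form built into the pump is known to differ between organelles and cell types. In mast cells, the acid granule interior is what allows histamine to accumulate together with proteoglycans, and granule membranes share LAMP proteins and CD63 with lysosomes. Many genes of lysosome proteins are known targets of the MiT transcription factors (MITF, TFEB, TFE3 and TFEC), which bind the letters CACGTG and extended forms of it.

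Promoter windows from RefSeq (GRCm38.p6, 250 bases before to 50 after an annotated start) were at hand for 27 of the 34 genes, with 34 windows in all. CACGTG occurred in 8 of these windows (23.5%) and in 7.15% of all 32851 windows. The extended form TCACGTGA, which contains CACGTG, occurred in 5 (14.7%) and in 0.974% of all windows. The same 8 letters with G before and C after them occurred in 0 and in 0.326% of all windows. All of these motifs read the same on both strands. The windows with CACGTG belonged to Mcoln2, Atp6v0b, Mcoln1, Lamp1, Atp6v0d1, Atp6v1a, Clcn7 and Atp6v0e. The stretches before the start are shown for Lamp1, Clcn7 and Mcoln2, which belong to the 6 genes with the largest increase from GMPs to BMMCs, and for Atp6v0b, which holds the letters and did not pass the test in that comparison. Capitals mark CACGTG. Lamp1 holds 4 copies within 61 bases of its start, Clcn7 has another copy 8 bases after its start that lies outside the stretch, and the copies in Atp6v0b begin 36 and 18 bases before its start.
Lamp1, chr8:13159081-13159160, forward strand: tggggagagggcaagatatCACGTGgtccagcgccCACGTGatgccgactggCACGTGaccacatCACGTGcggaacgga
Clcn7, chr17:25133311-25133390, forward strand: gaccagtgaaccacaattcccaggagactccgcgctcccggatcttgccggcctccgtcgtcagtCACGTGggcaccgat
Mcoln2, chr3:146150094-146150173, forward strand: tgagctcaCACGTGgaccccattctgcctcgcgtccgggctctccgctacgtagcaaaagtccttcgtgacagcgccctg
Atp6v0b, chr4:117887334-117887409, reverse strand: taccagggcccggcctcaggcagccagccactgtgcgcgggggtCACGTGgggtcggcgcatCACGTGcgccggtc
A match of letters is a description and not a binding site.

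Reads on genes numbered 32078404 to 53264762 per CMP library, 35501671 to 51497962 per GMP library and 18627626 to 28647216 per BMMC library. Levels are given as normalized RPKM, reads per length of the gene and depth of the library, the latter set by a size factor. Prss57 itself was at 198, 134, 125 and 124 in wild-type GMPs and at 17.1, 26.9, 17.02 and 32.03 in wild-type CMPs. Prss57-/- GMPs held between 6 and 25 Prss57 reads and each Prss57-/- CMP library held 1, so these libraries matched their labels. Wild-type BMMCs held between 2 and 27 Prss57 reads and Prss57-/- BMMCs held 0 (which allows up to 3 reads per library), so that the gene is a weak check of the label there. All 10 mast cell markers examined were at 1 or more in every BMMC library, and the GMP markers, usually led by Mpo, summed to 26830.0 to 40200.0 in GMPs and to 3917 to 10060.0 in CMPs. GMP and CMP libraries came from 1 sequencing run and BMMC libraries from another, so that BMMCs differ from the progenitors in sex and run as well as in cell type, and these cannot be told apart.

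A few libraries stood apart. Prss57-/- BMMC library 3 had macrophage markers that summed to 1105 against 10650.0 to 20500.0 in the other 9 BMMC libraries, and mast cell markers that summed to 76170.0 against 25830.0 to 47600.0. Prss57-/- CMP library 2 had a total normalized RPKM of 785333, where all other libraries lay between 336085 and 494881. Of the 31 member genes at 1 or more in a Prss57-/- CMP library, 17 were at their highest and 10 at their lowest of the 4 Prss57-/- CMP libraries there. Wild-type GMP library 1 was the highest of its 4 libraries for 16 of 30 genes and the lowest for 9, and Prss57-/- GMP library 4 was the highest for 19 and the lowest for 4. How many of all genes were at their highest or lowest in these libraries was not counted. Counts of the genes called between cell types, over all the genes described here, are given with and without these libraries. Counts by sector and for a wider list of lysosome genes are given with all libraries. In bulk libraries, fewer cells of a type and less RNA per cell cannot be told apart.

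The genes spanned a wide range of levels. Laptm5, a lysosomal membrane protein of blood cells, was the highest in every library except Prss57-/- CMP library 2, where Atp6v0b was at 552. In wild-type CMPs, Laptm5 (312 ± 27.3, SD, n = 4) was followed by the major lysosome glycoprotein Lamp1 (202 ± 4.08) and the c″ ring subunit Atp6v0b (199 ± 54.98), which did not differ beyond their spread. In wild-type GMPs the order was Laptm5 (448 ± 37.9), Lamp1 (274 ± 13.7), Atp6v0b (208 ± 55.9) and the tetraspanin Cd63 (161 ± 46.6), of which the latter pair lay within their spread. In wild-type BMMCs it was Laptm5 (1382 ± 136, SD, n = 5), Lamp1 (976 ± 123), Cd63 (413 ± 20.6), the accessory protein Atp6ap1 (258 ± 19.5) and the d1 stalk subunit Atp6v0d1 (216 ± 11.4). The first 4 were each apart from the next by more than their SD, while Atp6v0d1 was not apart from the gene after it, Atp6v0b (211 ± 7.39). The median over the 34 genes was 17.1 to 20.5 in CMPs, 27.4 to 31.8 in GMPs and 54.3 to 66.2 in BMMCs, with Prss57-/- BMMC library 3 at 36.4. Atp6v0e2 and Atp6v1c2 stayed below 0.1 in all libraries, and Atp6v0d2 stayed at or below 0.111 in all progenitors.

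Some of these counts are uncertain, because 50-base reads of a gene can match a copy elsewhere and only uniquely aligned reads were counted. The share of the coding sequence whose 50-base runs also occur in another transcript was 88.0% for Atp6v0c (Atp6v0c-ps2), 67.2% for Atp6v1g1, 57.1% for Cd63, 37.7% for Atp6v1f, 12.1% for Ostm1 and 11.7% for Laptm4b. It was 6.49% or less for the other genes. Reads were counted over whole exons, and over all transcript sequence of a gene the share was smaller for the genes named. It was 10.8% for Atp6v0c, 19.2% for Atp6v1g1, 11.1% for Cd63, 11.2% for Atp6v1f, 4.4% for Ostm1 and 3.64% for Laptm4b. By that measure it was at most 8.59% (Atp6v0b) for the rest. Atp6v0c, the proteolipid that forms most of the c ring, was at only 0.396 to 3.804 normalized RPKM. Lamp1, Atp6v0a2, Atp6v0b, Ostm1, Atp6v1c2, Atp6v1e1, Atp6v1g2 and Atp6v1h overlap a gene on the opposite strand, and whether the counting used strand is not given in the sources used here.

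**Figure D1:**
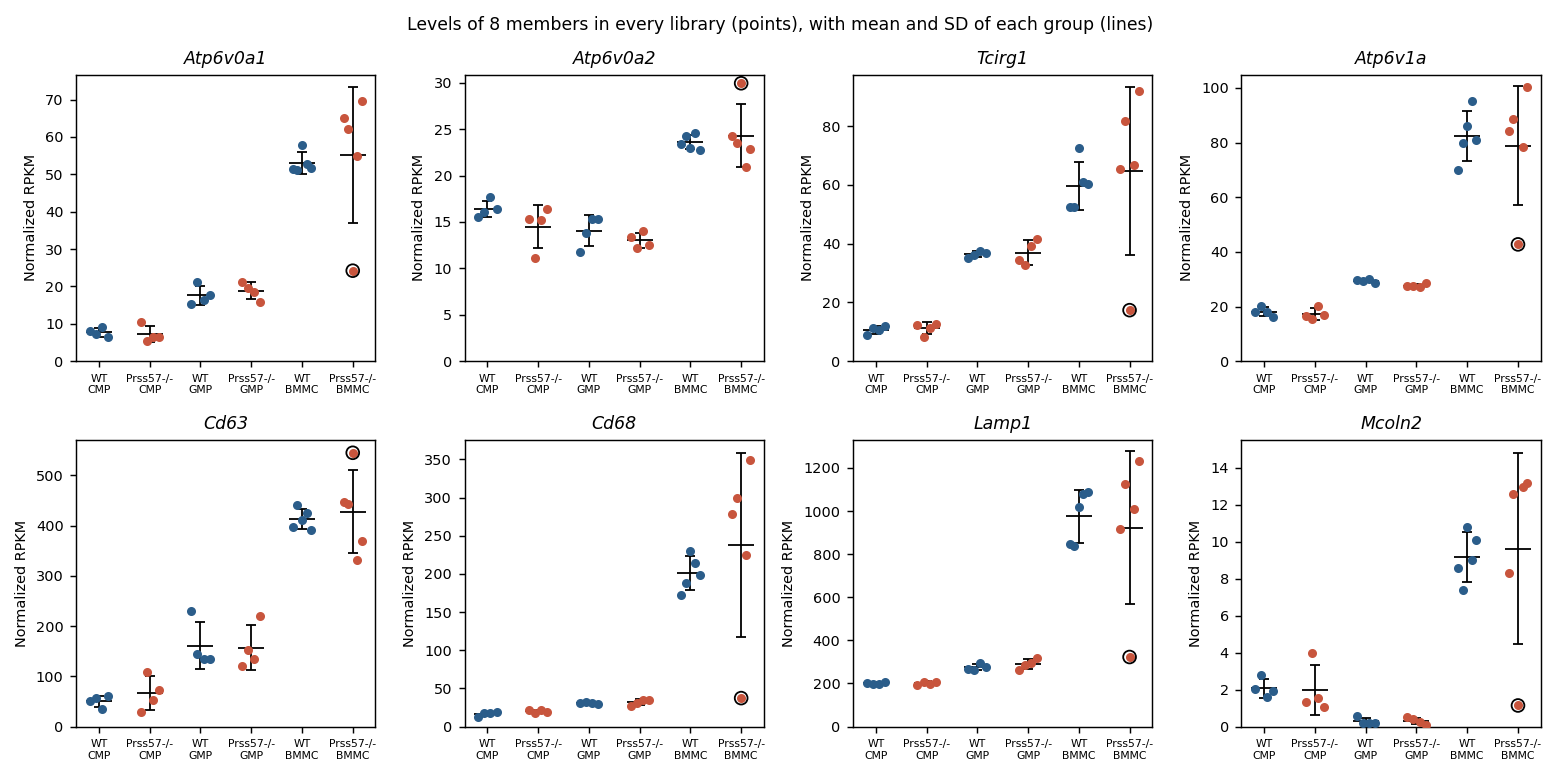
Normalized RPKM of 8 genes in each of the 26 libraries (points; blue, wild type; red, Prss57-/-), with the mean and SD of each group as lines; Prss57-/- BMMC library 3 is ringed. Tcirg1 lies between 8.20 and 12.7 in CMPs and between 32.6 and 41.7 in GMPs, and the ringed library is the lowest BMMC library for 6 of the 8 genes.

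GMPs and CMPs were compared first, to see which parts of the pump and membrane differ between progenitors with high and with low levels of Prss57. Tcirg1, Atp6v0a1, Ctns and Atp6v1a were higher in GMPs in both genotypes, by 3.44-fold, 2.31-fold, 1.79-fold and 1.65-fold in wild-type cells, and Mcoln2 was 7.12-fold lower. Of the 31 genes tested in wild-type cells, 13 were called higher in GMPs, which means an adjusted p under 0.01 at any fold (10.8% of all 14967 genes tested were higher), 4 of them by at least 2-fold (6.28% of all genes), and 2 were lower (10.1%), 1 of them by at least 2-fold (6.53%). The median log2 fold change was 0.36 over the 31 genes and -0.02 over all genes. Among Prss57-/- cells, 4 of 31 were higher (4.98% of all 14959 genes), 3 of them by at least 2-fold (4.04%), and 1 was lower (4.85%), also by at least 2-fold (4.38%), with a median log2 fold change of 0.42 against -0.03. Without wild-type GMP library 4, 8 genes were higher and 1 lower in wild-type GMPs (7.37% and 6.49% of all genes tested), and without wild-type GMP library 1, 14 and 2 (17.1% and 16.3%). Without Prss57-/- CMP library 1 or library 2, 9 were higher in Prss57-/- GMPs, where 1490 of 15204 and 986 of 15297 genes in all were. The lower genes numbered 2 and 0 there, and 1405 and 831 over all genes. Without Prss57-/- CMP library 3 or library 4 only Tcirg1 and Ctns were higher, and 395 of 15207 and 424 of 15291 genes in all. Without Prss57-/- GMP library 4, 3 were higher and 0 lower (3.08% and 3.18% of all genes). The difference between the genotypes in this step was tested as an interaction, given below, in which 0 genes were called.

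The V0 sector held the largest increase. Tcirg1 (chr19:3896050-3907133, reverse strand of GRCm38), the a3 form of the proton path subunit that is known from lysosomes and the osteoclast membrane, was at 8.802, 11.3, 10.6 and 12.1 in wild-type CMPs and at 35.1, 36.03, 37.5 and 36.9 in wild-type GMPs. It was at 12.3, 8.204, 11.5 and 12.7 in Prss57-/- CMPs and at 34.5, 32.6, 39.1 and 41.7 in Prss57-/- GMPs. The groups did not overlap in either genotype, and the differences were 3.44-fold (log2 fold change 1.78 ± 0.12, adjusted p = 3.01e-06) in wild-type and 3.404-fold (log2 fold change 1.77 ± 0.19, adjusted p = 0.000318) in Prss57-/- cells from edgeR's quasi-likelihood test. Atp6v0a1 (chr11:101009452-101063719, forward strand), the a1 form, was at 8.21, 7.16, 9.03 and 6.47 in wild-type CMPs and at 15.4, 21.2, 16.3 and 17.8 in wild-type GMPs. The values were 10.5, 5.50, 6.61 and 6.43 in Prss57-/- CMPs and 21.2, 19.7, 18.6 and 15.9 in Prss57-/- GMPs. The groups again did not overlap (wild type: log2 fold change 1.21 ± 0.15, adjusted p = 0.000153, and Prss57-/-: log2 fold change 1.42 ± 0.22, adjusted p = 0.00221). The Prss57-/- call of Atp6v0a1 was lost without Prss57-/- CMP library 3 or library 4. An exact permutation test of the levels (two-sided) gave p = 0.0286 for both genes in both genotypes, the smallest that 4 libraries against 4 allow.

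With the increase of Tcirg1 and Atp6v0a1, the make-up of the a subunit transcripts differed between the progenitors. In wild-type CMPs, Atp6v0a2, the a2 form, accounted for 47.1% ± 0.548 (SD, n = 4) of the summed level of these 3 genes, Tcirg1 for 30.7% ± 3.56 and Atp6v0a1 for 22.2% ± 3.12. In wild-type GMPs, Tcirg1 accounted for 53.5% ± 2.40, Atp6v0a1 for 25.9% ± 2.73 and Atp6v0a2 for 20.6% ± 1.65. The corresponding values in Prss57-/- cells were 44.2%, 33.9% and 21.9% in CMPs and 18.9%, 53.6% and 27.5% in GMPs, for Atp6v0a2, Tcirg1 and Atp6v0a1. In both genotypes the leading form was thus Atp6v0a2 in each CMP library and Tcirg1 in each GMP library. The third V0 gene that was higher in wild-type GMPs was Atp6v0d1, by 1.38-fold (log2 fold change 0.47 ± 0.10, adjusted p = 0.00416). It lost the call without any one of wild-type CMP libraries 1 and 2 and wild-type GMP libraries 3 and 4.

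Of the 9 V1 genes tested, 3 were higher in wild-type GMPs and 1 in Prss57-/- GMPs (10.8% and 4.98% of all genes were). Atp6v1a, the catalytic A subunit, was at 17.9, 20.1, 18.2 and 16.1 in wild-type CMPs and at 29.7, 29.4, 29.99 and 28.7 in wild-type GMPs. In Prss57-/- CMPs it was at 16.6, 15.4, 20.2 and 16.9 and in Prss57-/- GMPs at 27.4, 27.4, 27.3 and 28.8. No CMP library reached a GMP library of its genotype (log2 fold change 0.72 ± 0.10, adjusted p = 0.000285 in wild-type and log2 fold change 0.72 ± 0.14, adjusted p = 0.00709 in Prss57-/- cells). The Prss57-/- call of Atp6v1a was lost without CMP library 3 or 4 or any one of the 4 GMP libraries. Atp6v1b2, the B subunit that forms the ATPase head together with A, was 1.604-fold higher in wild-type GMPs (log2 fold change 0.68 ± 0.09, adjusted p = 0.000295) and had a log2 fold change of 0.70 ± 0.16 in Prss57-/- cells, which missed the threshold (adjusted p = 0.0131). Without Prss57-/- CMP library 2, Atp6v1b2 passed it. Atp6v1e1, of the peripheral stalk, was 1.44-fold higher in wild-type GMPs (log2 fold change 0.53 ± 0.10, adjusted p = 0.00251), a call that was lost without wild-type GMP library 4.

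Both accessory proteins were called higher in wild-type GMPs, as were 10.8% of all genes. Atp6ap2, the (pro)renin receptor, rose from 35.8 ± 3.18 to 74.2 ± 10.7 (SD, n = 4; log2 fold change 1.07 ± 0.12, adjusted p = 9.06e-05), and Atp6ap1 from 78.9 ± 1.498 to 103 ± 2.96 (log2 fold change 0.40 ± 0.09, adjusted p = 0.00541). The call of Atp6ap1 was lost without any one of wild-type CMP libraries 1, 2 and 4 and wild-type GMP libraries 2, 3 and 4. The log2 fold changes of both in Prss57-/- cells were 0.89 ± 0.20 (adjusted p = 0.0133) and 0.44 ± 0.13 (adjusted p = 0.0359). Without Prss57-/- CMP library 2, Atp6ap2 passed the threshold and Atp6ap1 did not. Of the 5 glycoproteins, Cd63, Cd68 and Lamp1 were higher in wild-type GMPs. Cd63, a tetraspanin of late endosomes and granules, went from 49.9, 56.4, 34.01 and 60.4 in wild-type CMPs to 230.3, 144, 135 and 134 in wild-type GMPs (log2 fold change 1.70 ± 0.22, adjusted p = 0.000214), where library 1 was far above the others. Cd68, a glycoprotein best known from macrophage lysosomes, had a log2 fold change of 0.89 ± 0.14 (adjusted p = 0.000752), and Lamp1 one of 0.46 ± 0.09 (adjusted p = 0.00298). The call of Lamp1 was lost without any one of wild-type CMP libraries 1 and 2 and wild-type GMP libraries 3 and 4. The log2 fold changes of these 3 genes in Prss57-/- cells were between 0.57 and 1.31, and all missed the threshold (adjusted p from 0.0114 to 0.0322). They passed it without Prss57-/- CMP library 2.

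The LAPTM proteins and the channels moved in both directions. Laptm5 was 1.45-fold higher (log2 fold change 0.54 ± 0.12, adjusted p = 0.00476) and Laptm4a was lower in wild-type GMPs (log2 fold change -0.68 ± 0.15, adjusted p = 0.006003). Both calls were lost without any one of wild-type CMP libraries 1, 2 and 4 and wild-type GMP libraries 2, 3 and 4. Ctns, the lysosomal cystine exporter, was at 5.56, 5.36, 5.95 and 5.64 in wild-type CMPs and at 8.95, 10.97, 10.8 and 9.09 in wild-type GMPs. Ctns was at 5.75, 4.45, 5.05 and 4.81 in Prss57-/- CMPs and at 10.5, 10.5, 11.6 and 9.95 in Prss57-/- GMPs. The groups did not overlap (log2 fold change 0.84 ± 0.12, adjusted p = 0.000461 in wild-type and log2 fold change 1.13 ± 0.15, adjusted p = 0.000957 in Prss57-/- cells). Mcoln2 (chr3:146149833-146195513, forward strand), a mucolipin cation channel of endosomes, was at 2.03, 2.79, 1.58 and 1.904 in wild-type CMPs and at 0.581, 0.198, 0.178 and 0.203 in wild-type GMPs. Its levels were 1.32, 3.99, 1.57 and 1.08 in Prss57-/- CMPs and 0.491, 0.405, 0.242 and 0.0972 in Prss57-/- GMPs. All GMP libraries were below all CMP libraries, by 7.12-fold in wild-type (log2 fold change -2.83 ± 0.39, adjusted p = 0.000347) and by 6.07-fold in Prss57-/- cells (log2 fold change -2.60 ± 0.55, adjusted p = 0.0099). The Prss57-/- call rested on 10 to 79 reads per GMP library, and it was lost without any one of the 8 libraries except Prss57-/- CMP library 1.

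**Figure D2:**
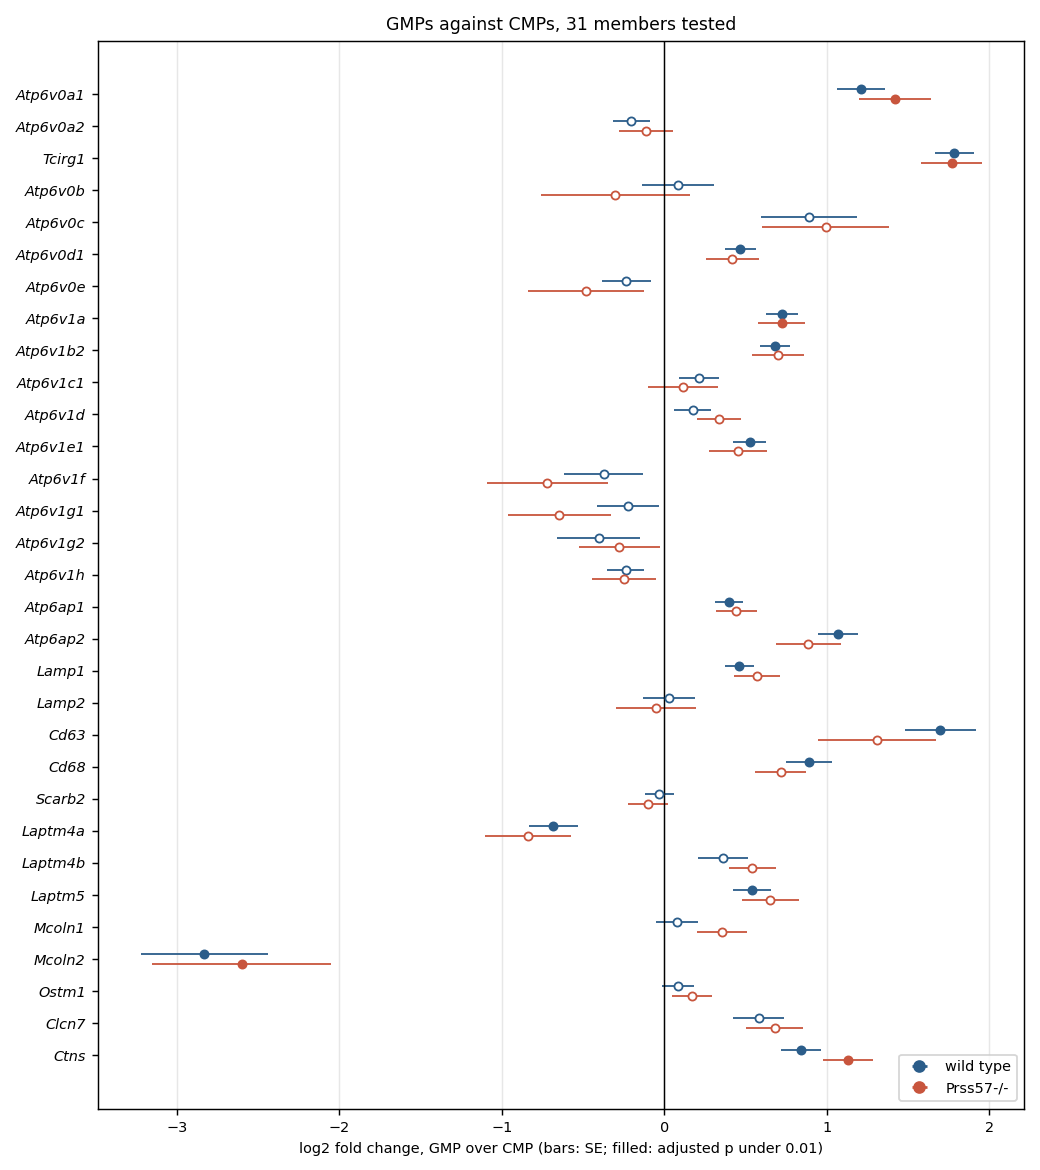
Log2 fold change of GMPs over CMPs with its SE for the 31 genes tested (blue, wild type; red, Prss57-/-; filled, adjusted p under 0.01). Tcirg1, Cd63 and Atp6v0a1 lie farthest to the right in wild-type cells and Mcoln2 farthest to the left in both genotypes.

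The other 16 genes tested passed the threshold in neither genotype, and their levels are given library by library. Atp6v0a2 was at 15.5, 16.1, 17.6 and 16.4 in wild-type CMPs, 11.8, 13.8, 15.3 and 15.4 in wild-type GMPs, 15.4, 11.1, 15.2 and 16.4 in Prss57-/- CMPs and 13.3, 12.2, 13.99 and 12.5 in Prss57-/- GMPs. Atp6v0b was at 194, 202, 133 and 268 in wild-type CMPs, 286, 156, 187 and 204 in wild-type GMPs, 103, 552, 228 and 269.8 in Prss57-/- CMPs and 140.0, 184, 219 and 352 in Prss57-/- GMPs. Atp6v0c was at 0.938, 0.588, 0.427 and 0.7996 in wild-type CMPs, 1.33, 1.29, 1.13 and 1.26 in wild-type GMPs, 0.438, 0.396, 0.583 and 1.13 in Prss57-/- CMPs and 1.04, 1.35, 1.09 and 1.46 in Prss57-/- GMPs. Of these V0 genes, Atp6v0a2 was lower and Atp6v0c higher in each wild-type GMP library than in any wild-type CMP library, while the Prss57-/- groups overlapped (wild type: adjusted p = 0.186 for Atp6v0a2 and 0.0362 for Atp6v0c). Atp6v0e was at 71.03, 75.5, 57.5 and 77.5 in wild-type CMPs, 76.9, 48.6, 55.0 and 55.6 in wild-type GMPs, 42.2, 156, 77.0 and 78.8 in Prss57-/- CMPs and 45.4, 55.7, 58.8 and 83.2 in Prss57-/- GMPs. Atp6v1c1 was at 38.03, 42.7, 35.7 and 42.99 in wild-type CMPs, 55.3, 39.9, 43.1 and 44.2 in wild-type GMPs, 29.3, 60.6, 43.2 and 44.4 in Prss57-/- CMPs and 40.3, 44.8, 44.2 and 56.4 in Prss57-/- GMPs. Atp6v1d was at 11.3, 10.04, 10.9 and 11.5 in wild-type CMPs, 10.9, 11.4, 13.4 and 13.01 in wild-type GMPs, 11.02, 9.86, 10.6 and 9.81 in Prss57-/- CMPs and 11.7, 12.1, 13.7 and 12.98 in Prss57-/- GMPs. The small V0 subunit Atp6v0e and the C subunit Atp6v1c1, which joins both sectors, overlapped in both genotypes, and the D subunit of the rotor, Atp6v1d, overlapped in wild-type cells alone.

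Atp6v1f was at 61.2, 57.6, 33.1 and 74.4 in wild-type CMPs, 60.3, 34.7, 38.3 and 38.99 in wild-type GMPs, 32.1, 124, 54.6 and 72.9 in Prss57-/- CMPs and 28.6, 37.99, 41.4 and 56.95 in Prss57-/- GMPs. Atp6v1g1 was at 12.4, 12.7, 7.94 and 12.4 in wild-type CMPs, 12.6, 8.51, 8.97 and 8.33 in wild-type GMPs, 7.78, 23.8, 11.1 and 16.9 in Prss57-/- CMPs and 7.88, 8.71, 8.06 and 11.8 in Prss57-/- GMPs. Atp6v1g2 was at 1.66, 1.76, 1.22 and 0.9698 in wild-type CMPs, 1.38, 0.8998, 0.991 and 0.917 in wild-type GMPs, 1.22, 1.43, 0.922 and 1.43 in Prss57-/- CMPs and 0.921, 1.26, 0.852 and 0.941 in Prss57-/- GMPs. The rotor subunit F and both forms of the G stalk subunit overlapped throughout, and library 2 was the highest Prss57-/- CMP library for Atp6v0b, Atp6v0e, Atp6v1f and Atp6v1g1. Atp6v1h was at 37.5, 45.99, 39.1 and 43.03 in wild-type CMPs, 40.5, 30.7, 33.5 and 33.8 in wild-type GMPs, 29.7, 53.1, 46.8 and 39.5 in Prss57-/- CMPs and 29.96, 32.04, 34.3 and 41.5 in Prss57-/- GMPs. Lamp2 was at 41.7, 56.7, 40.03 and 39.7 in wild-type CMPs, 58.3, 41.1, 39.3 and 40.9 in wild-type GMPs, 28.9, 69.05, 51.02 and 37.9 in Prss57-/- CMPs and 43.8, 45.1, 37.5 and 47.9 in Prss57-/- GMPs. Scarb2 was at 19.98, 18.99, 20.2 and 21.1 in wild-type CMPs, 19.1, 18.8, 20.1 and 19.6 in wild-type GMPs, 20.1, 23.3, 20.6 and 21.9 in Prss57-/- CMPs and 18.8, 18.9, 20.1 and 19.9 in Prss57-/- GMPs. The regulatory H subunit, Lamp2, and Scarb2, the receptor that carries glucocerebrosidase to lysosomes, also overlapped throughout.

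Laptm4b was at 5.19, 5.96, 6.08 and 4.76 in wild-type CMPs, 8.61, 6.62, 6.29 and 6.43 in wild-type GMPs, 5.09, 5.35, 4.61 and 4.73 in Prss57-/- CMPs and 6.46, 7.197, 7.25 and 6.93 in Prss57-/- GMPs. Mcoln1 was at 7.93, 7.81, 8.12 and 8.77 in wild-type CMPs, 7.47, 7.96, 9.81 and 8.69 in wild-type GMPs, 8.11, 6.38, 6.99 and 6.45 in Prss57-/- CMPs and 8.18, 8.92, 8.097 and 9.46 in Prss57-/- GMPs. The groups of Laptm4b did not overlap in either genotype, but the difference missed the threshold (adjusted p = 0.0834 in wild-type and 0.0274 in Prss57-/- cells), and Mcoln1, the lysosomal calcium channel, overlapped. Ostm1 was at 16.3, 16.4, 14.4 and 14.9 in wild-type CMPs, 16.3, 16.5, 15.4 and 16.6 in wild-type GMPs, 15.3, 15.04, 14.3 and 14.96 in Prss57-/- CMPs and 16.7, 16.9, 15.9 and 15.5 in Prss57-/- GMPs. Clcn7 was at 5.198, 5.05, 6.97 and 5.998 in wild-type CMPs, 7.04, 8.19, 9.62 and 9.43 in wild-type GMPs, 6.86, 4.34, 5.27 and 5.33 in Prss57-/- CMPs and 8.92, 8.18, 9.01 and 7.84 in Prss57-/- GMPs. Clcn7, a chloride-proton exchanger of lysosomes, was higher in each GMP library than in any CMP library of its genotype, with adjusted p-values of 0.0148 and 0.023, and its partner subunit Ostm1 was so in Prss57-/- cells alone. Without wild-type GMP library 1, Clcn7 was called higher in wild-type GMPs. Atp6v0d2, Atp6v0e2 and Atp6v1c2 were too low to be tested.

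Other markers moved with this comparison. In CMPs, late neutrophil markers summed to 12.2 to 82.6 and basophil and eosinophil markers to 25.3 to 129, and in GMPs to 821 to 5166 and 3520.0 to 6660.0, where S100a9 and Prg2 were usually the most abundant. Erythroid markers went from 520 to 1072 in CMPs to 19.1 to 55.0 in GMPs, those of platelets from 134 to 272 to 9.04 to 43.2, the CMP markers from 1306 to 3206 to 314 to 405, and dendritic cell markers from 85.0 to 151 to 43.4 to 83.8. Mast cell markers summed to 187 to 222 in CMPs and 498 to 742 in GMPs, and were led by Cpa3 in GMPs and by Cpa3 or Kit in CMPs, with 6 of the 10 markers at 1 or more in each CMP library. Macrophage markers overlapped (169 to 522 and 264 to 459), B cell markers were at 131 to 152 and 151 to 212, and T cell markers did not exceed 0.904. Their part in the differences between GMPs and CMPs was not tested.

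BMMCs were then set beside the GMPs from which such cultures are started. Atp6v0d2 had at least 680 reads in each BMMC library and at most 17 in a GMP library, Mcoln2 was 29.96-fold, Cd68 6.17-fold, Clcn7 3.97-fold and Lamp1 3.33-fold higher in wild-type BMMCs, and Laptm4b was 3.79-fold lower. In wild-type cells, 26 of the 32 genes tested were higher in BMMCs (37.5% of all 14754 genes tested were higher), 13 of them by at least 2-fold (27.3%), and 1 was lower (36.9%), by at least 2-fold (24.4%). From Prss57-/- GMPs to BMMCs, 23 were higher (32.2% of all 14929 genes), 14 of them by at least 2-fold (25.6%), and 1 was lower (31.1%), by at least 2-fold (22.3%). Without Prss57-/- BMMC library 3 it was 26 and 1 (36.6% and 36.2% of all genes), and the genes added were Tcirg1, Atp6v1b2 and Scarb2. Without Prss57-/- GMP library 4 it was 22 and 0 (29.6% and 29.1%), and without wild-type GMP library 1 the wild-type counts were 27 and 1 (38.9% and 38.1%). The 23 genes were all among the 26 of wild-type cells. The median log2 fold change was 0.78 over these genes against 0.00 over all in wild-type cells, and 0.88 against 0.03 in Prss57-/- cells. Every channel and transporter (5 of 5) was higher in both genotypes. So were 6 of 8 V0 genes, 7 of 9 V1 genes, 5 of 5 glycoproteins and 1 of 2 accessory proteins in wild-type BMMCs, and 5, 6, 4 and 1 of these in Prss57-/- BMMCs. Atp6v1c1, Atp6v1h and Laptm4a were called in Prss57-/- cells although their BMMC and GMP libraries overlapped. The Prss57-/- calls of Atp6v0c, Atp6v1c1 and Atp6v1h were lost without any one of BMMC libraries 1 and 5 and GMP libraries 1, 2 and 3. Atp6v0c also lost it without GMP library 4, Atp6v1h without BMMC library 2 and Atp6v1c1 without BMMC library 2 or 4.

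Atp6v0d2 (chr4:19876841-19922605, reverse strand), a second form of the d subunit that is known from osteoclasts and macrophages, was the most distinct. It was at 103, 108, 146, 146 and 123 in wild-type BMMCs and at 155, 151, 15.7, 115 and 236 in Prss57-/- BMMCs. Wild-type GMPs held 3, 3, 0 and 0 reads and Prss57-/- GMPs 17, 0, 9 and 2, against 5463 to 9251 reads in wild-type BMMCs, so that no fold change is given. Library 3 of the Prss57-/- BMMCs, with 680 reads, was far below the other 9 and far above all GMPs. Of the summed level of both d subunits, Atp6v0d2 made up 36.6% ± 4.14 (SD, n = 5) in wild-type BMMCs, 6.91% in Prss57-/- library 3 and 43.2% ± 6.71 (SD, n = 4) in the other Prss57-/- BMMCs, and at most 0.105% in any progenitor library.

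Mcoln2, which was lower in GMPs than in CMPs, was at 8.57, 7.38, 10.8, 9.02 and 10.1 in wild-type and at 8.29, 12.6, 1.14, 12.9 and 13.2 in Prss57-/- BMMCs. All of these libraries were above all GMP libraries (0.0972 to 0.581), and library 3 again lay closest to them (log2 fold change 4.91 ± 0.33, adjusted p = 4.64e-08 in wild-type and log2 fold change 4.84 ± 0.75, adjusted p = 0.00026 in Prss57-/- cells). It made up 29.3% ± 2.61 of the summed level of Mcoln1 and Mcoln2 in wild-type BMMCs, 3.43% ± 2.55 in wild-type GMPs and 20.2% ± 4.42 in wild-type CMPs. Cd68 (chr11:69664213-69666153, reverse strand) was at 173, 188, 229.8, 214 and 199 in wild-type and at 278, 299.8, 37.2, 225 and 349 in Prss57-/- BMMCs, against 27.3 to 35.1 in GMPs. The difference was 6.17-fold in wild-type cells (log2 fold change 2.62 ± 0.10, adjusted p = 3.37e-10), and in library 3 the level exceeded that of the highest GMP library only slightly (log2 fold change 2.80 ± 0.53, adjusted p = 0.000885 in Prss57-/- cells). Lamp1 (chr8:13159161-13175338, forward strand) was at 849, 839, 1019, 1081 and 1090.0 in wild-type and at 919, 1124, 323, 1009 and 1233 in Prss57-/- BMMCs, against 262 to 318 in GMPs. Library 3 was again the lowest and lay just above the GMPs (log2 fold change 1.74 ± 0.11, adjusted p = 2.55e-08 in wild-type and log2 fold change 1.57 ± 0.33, adjusted p = 0.00177 in Prss57-/- cells).

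Clcn7 (chr17:25133391-25162104, forward strand) was at 33.9, 36.4, 40.1, 35.8 and 35.2 in wild-type and at 42.6, 43.99, 22.1, 36.4 and 45.01 in Prss57-/- BMMCs, against 7.04 to 9.62 in GMPs. All BMMC libraries, library 3 included, were more than 2-fold above all GMP libraries (log2 fold change 1.99 ± 0.11, adjusted p = 6.09e-09 in wild-type and log2 fold change 2.06 ± 0.20, adjusted p = 1.09e-05 in Prss57-/- cells). Laptm5 (chr4:130913125-130936141, forward strand) was at 1226, 1516, 1367, 1523 and 1277 in wild-type and at 1522, 1465, 1415, 1171 and 1323 in Prss57-/- BMMCs, against 393 to 479 in GMPs. Its level in library 3 was within the range of the other BMMCs (log2 fold change 1.53 ± 0.11, adjusted p = 5.34e-08 in wild-type and log2 fold change 1.52 ± 0.13, adjusted p = 3.9e-06 in Prss57-/- cells). The other genes called in both genotypes were between 1.57-fold (Laptm4a) and 2.82-fold (Atp6v0a1) higher in wild-type BMMCs. They included Atp6v1a (2.62-fold), Mcoln1 (2.44-fold), Cd63 (2.41-fold), Atp6ap1 (2.35-fold), Atp6v1d (2.298-fold) and Ostm1 (2.095-fold).

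**Figure D3:**
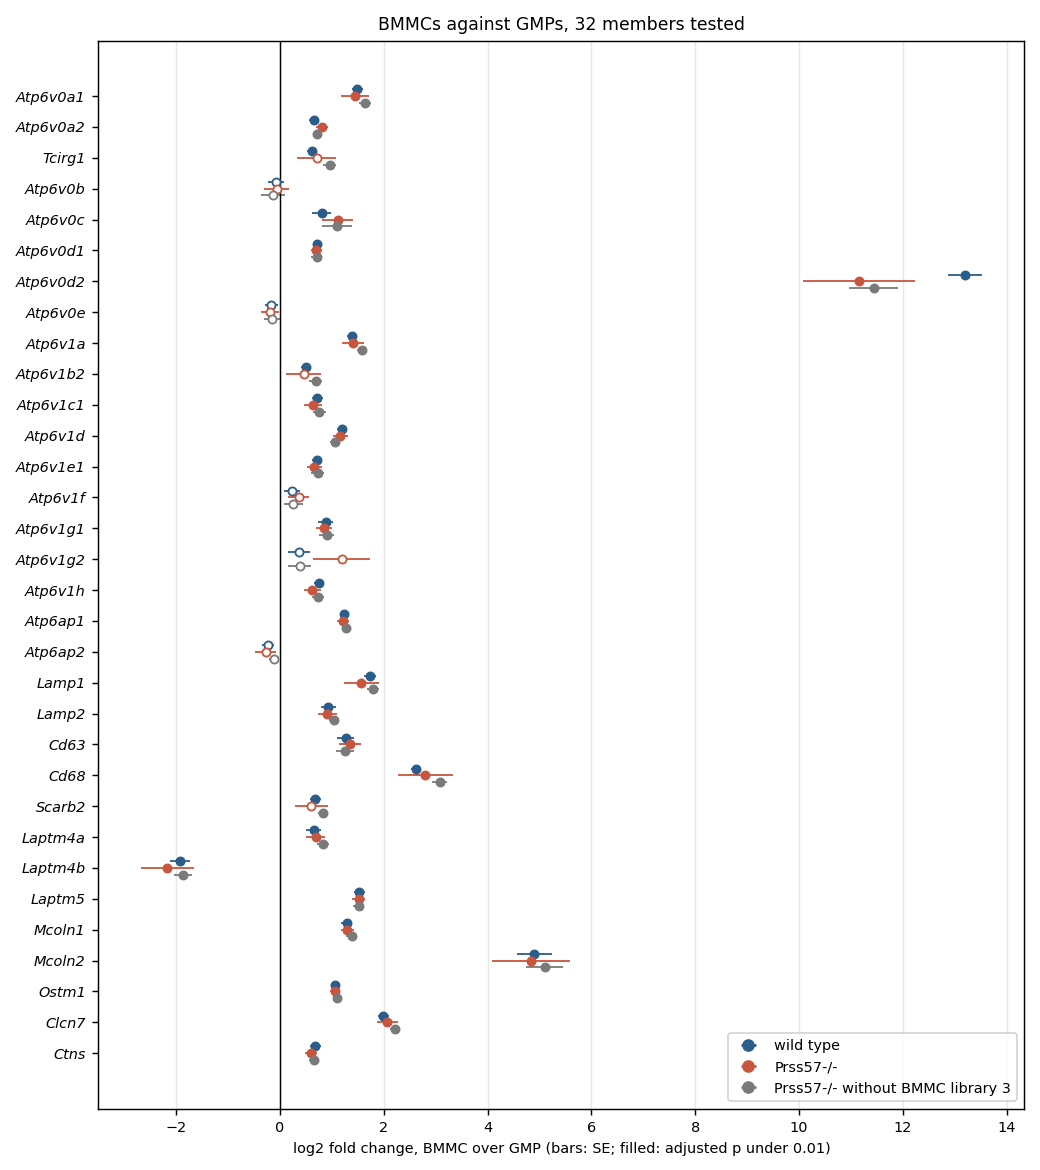
Log2 fold change of BMMCs over GMPs with its SE for the 32 genes tested (blue, wild type; red, Prss57-/-; grey, Prss57-/- without BMMC library 3; filled, adjusted p under 0.01). Laptm4b is the one gene called to the left of 0, and the position of Atp6v0d2 depends on its few reads in GMPs.

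Laptm4b (chr15:34238028-34284302, forward strand), a lysosomal membrane protein related to Laptm4a, was the 1 gene that was lower in BMMCs. It was at 1.302, 1.65, 2.73, 2.21 and 1.92 in wild-type and at 1.67, 2.04, 0.154, 1.67 and 2.698 in Prss57-/- BMMCs, all below the 6.29 to 8.61 of the GMPs. The difference was 3.79-fold in wild-type (log2 fold change -1.92 ± 0.20, adjusted p = 1.95e-06) and 4.48-fold in Prss57-/- cells (log2 fold change -2.17 ± 0.52, adjusted p = 0.00376), and the latter call was lost without any one of Prss57-/- BMMC libraries 1 and 4 and Prss57-/- GMP libraries 2, 3 and 4. Laptm4a went the other way (log2 fold change 0.65 in wild-type and 0.69 in Prss57-/- cells, both called), and its Prss57-/- call was lost without any one of BMMC libraries 1, 2, 4 and 5 and GMP libraries 1, 2 and 3.

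Atp6v0b, Atp6v0e, Atp6v1f, Atp6v1g2 and Atp6ap2 were called in neither genotype. Without wild-type GMP library 1, Atp6v1f was called higher in wild-type BMMCs. Atp6v0b was at 213, 211, 222, 203 and 207 in wild-type and at 218, 235, 276, 202 and 214 in Prss57-/- BMMCs. Atp6v0e was at 50.3, 56.4, 56.01, 62.9 and 55.8 in wild-type and at 64.5, 59.3, 50.6, 48.5 and 62.1 in Prss57-/- BMMCs. Atp6v1f was at 57.5, 56.5, 54.04, 48.8 and 53.4 in wild-type and at 56.9, 51.1, 72.7, 45.6 and 56.1 in Prss57-/- BMMCs. These 3 genes varied more among the GMP libraries given above than among BMMCs. Atp6v1g2, whose protein is known mainly from neurons, was at 1.497, 1.13, 1.29, 1.83 and 1.45 in wild-type and at 1.16, 1.57, 6.68, 1.22 and 1.58 in Prss57-/- BMMCs. Atp6ap2 was at 62.1, 59.03, 70.99, 75.01 and 72.4 in wild-type BMMCs, 63.05, 69.99, 35.5, 72.4 and 76.99 in Prss57-/- BMMCs, 89.7, 71.3, 65.3 and 70.3 in wild-type GMPs and 71.2, 70.2, 64.4 and 81.8 in Prss57-/- GMPs. The groups overlapped for all 5 genes, and the log2 fold changes in wild-type cells were between -0.22 ± 0.11 (Atp6ap2) and 0.36 ± 0.21 (Atp6v1g2).

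Markers of macrophages moved with this comparison too. All 10 were at 1 or more in every BMMC library. Their sum was 12760.0, 10650.0, 15880.0, 13830.0 and 15640.0 in wild-type BMMCs, 14660.0, 16000.0, 1105, 14210.0 and 20500.0 in Prss57-/- BMMCs, and 264 to 459 in GMPs. Lyz2 was the most abundant of them, with 977.9 in Prss57-/- BMMC library 3 and at least 9432 in the other BMMCs. Dendritic cell markers, led by Cd74, summed to 892 to 1933 in the other 9 BMMC libraries and to 74.5 in library 3, where Flt3, Ccr7 and Cd209a were at 0. Late neutrophil markers summed to 39.3 there and to 136 to 298 in the others. Basophil and eosinophil markers summed to 345 there and to 459 to 839 in the others. Library 3 thus had the lowest sum of each of these lists, though not the lowest level of every marker. Ly6g was at 11.73 there against 7.918 in the lowest BMMC library, and Cd200r3 was at 231.4 against 186.0 in Prss57-/- BMMC library 1. The summed level of mast cell markers was the highest in library 3, with Cpa3 at 29820.0 and Cma1 at 14490.0 against at most 16850.0 and 3836 in the other 9, whereas Tpsab1 (13.35 against 513 to 1178) and Hdc (88.6 against 125 to 174.6) were the lowest there. In library 3, 21 of the 32 genes at 1 or more in a BMMC library were above all 8 GMP libraries. The share of all genes for which this holds was not counted. Other lists differed between GMPs and BMMCs as well. Markers of GMPs went from 26830.0 to 40200.0 in GMPs to 913 to 1550.0 in BMMCs, those of B cells from 151 to 212 to 4.81 to 12.1 and those of erythroid cells from 19.1 to 55.0 to 1.92 to 9.63. The CMP list, usually led by Cd34 in GMPs and by Pf4 in BMMCs, was at 314 to 405 in GMPs and at 1423 to 2331 in BMMCs, and platelet markers, usually led by Ppbp, were at 9.04 to 43.2 and at 80.6 to 199. T cell markers stayed below 1 in all of these libraries.

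Levels in library 3 differed from the other BMMCs gene by gene. It was below all other 9 BMMC libraries for 21 of the 32 genes, within their range for 5 and above it for 6. Such counts were not made over all genes, so they do not set these genes apart from others. Of the 21 genes below, 12 were still above all GMP libraries and 9 were within or below the range of the GMPs. Among the latter were Tcirg1 (17.4 against 52.4 to 92.0 in the other BMMCs and 32.6 to 41.7 in GMPs), Atp6v1b2 (59.3 against 159 to 256 and 109.5 to 135) and Scarb2 (10.98 against 26.8 to 43.7 and 18.8 to 20.1). These 3 were the genes whose call in Prss57-/- cells depended on it. Without library 3 their values were, for Tcirg1, log2 fold change 0.96 ± 0.13, adjusted p = 3.49e-05. For Atp6v1b2 they were log2 fold change 0.69 ± 0.12, adjusted p = 0.000264, and for Scarb2, log2 fold change 0.83 ± 0.10, adjusted p = 1.54e-05. Atp6v0a2, Atp6v0b, Atp6v1d, Atp6v1f, Atp6v1g2 and Cd63 were above all other BMMCs in it. The part of macrophages or other cells in these differences was not tested.

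The a subunit transcripts showed the contrast among the forms of 1 subunit. Which form is built into the pump was not measured. In wild-type BMMCs, Tcirg1 made up 43.6% ± 2.61 (SD, n = 5), Atp6v0a1 39.0% ± 1.19 and Atp6v0a2 17.4% ± 1.56 of their summed level. In Prss57-/- BMMCs without library 3 the shares were 47.0% ± 3.33 (SD, n = 4), 38.8% ± 2.17 and 14.2% ± 1.38. In library 3 they were 24.3%, 33.9% and 41.9%, so that Atp6v0a2 led there as in the CMPs. The G subunit showed a similar shift, with Atp6v1g2 at 30.6% of the G forms in library 3 and at 7.12% ± 1.49 in wild-type BMMCs.

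**Figure D4:**
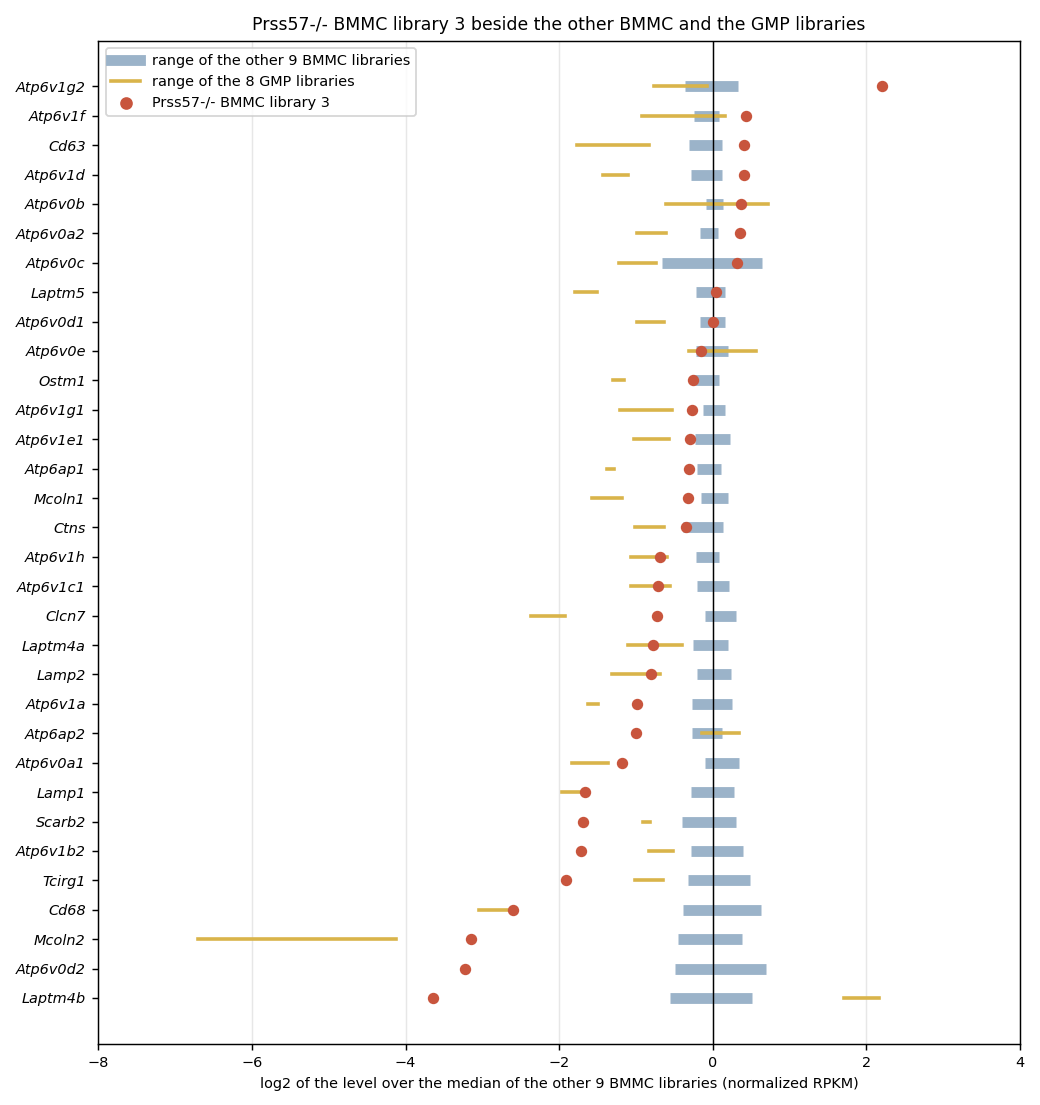
Level in Prss57-/- BMMC library 3 (red) for 32 genes, as log2 of the ratio to the median of the other 9 BMMC libraries, with the range of those 9 (blue) and of the 8 GMP libraries (yellow; not drawn for Atp6v0d2, which is at 0 in some GMP libraries). Laptm4b, Atp6v0d2, Mcoln2, Cd68 and Tcirg1 lie farthest below the other BMMCs, and Atp6v1g2 farthest above.

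The genotypes were compared within each cell type, to see whether the loss of NSP4 changed the pump or the membrane genes. None of the 34 genes passed the threshold in any of these comparisons. Of 31 genes tested, 0 were called in GMPs (0.00681% of all 14689 genes tested, which is Prss57 alone) and 0 in CMPs (0.00670% of 14916), and 0 of 32 were called in BMMCs (0 of 13938). At an unadjusted p under 0.05, edgeR gave 0 genes of these 3 sets as well, where the share of all genes was 0.810%, 0.510% and 2.38%. DESeq2 and limma voom also called 0. The levels of the genotypes overlapped for every gene in every cell type.

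In GMPs, the log2 fold change of Prss57-/- over wild-type cells lay between -0.11 (Atp6v0a2) and 0.11 (Mcoln2), and all 31 genes were within 1.2-fold. The 3 genes with the smallest unadjusted p-values of edgeR (0.305, 0.333 and 0.396) were Atp6v1a (-0.09 ± 0.08), Atp6v0a2 (-0.11 ± 0.11) and Lamp1 (0.08 ± 0.09). Lamp1 was at 266, 263, 293 and 275 in wild-type and at 262, 284, 296 and 318 in Prss57-/- GMPs, and the levels of the other 2 genes are given above. SEs were between 0.08 and 0.54, the largest for Mcoln2. In CMPs, the range was -0.24 (Mcoln1) to 0.51 ± 0.43 (Atp6v0b), and 26 of 31 genes were within 1.2-fold. Mcoln1 (-0.24 ± 0.16), Cd68 (0.25 ± 0.18) and Atp6v0a2 (-0.20 ± 0.16) had the smallest unadjusted p-values (0.161, 0.189 and 0.249). Cd68 was at 12.7, 17.5, 18.1 and 18.4 in wild-type and at 21.3, 17.7, 21.5 and 19.6 in Prss57-/- CMPs, with the 2 groups overlapping. Without Prss57-/- CMP library 2, which was the highest for Mcoln2, 1 gene had an unadjusted p under 0.05, namely Mcoln2 (log2 fold change -0.66 ± 0.26, unadjusted p = 0.0275, adjusted p = 0.9998), as had 211 of all 15281 genes. Without Prss57-/- CMP library 1, 2 of the genes and 561 of all 15121 had one.

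In BMMCs, the range was -0.25 ± 0.50 (Laptm4b) to 0.75 ± 0.50 (Atp6v1g2), and 30 of 32 genes were within 1.2-fold. Atp6v1g2, Atp6v0b (0.11 ± 0.09) and Atp6v1g1 (-0.11 ± 0.09) had the smallest unadjusted p-values (0.163, 0.234 and 0.246). Atp6v1g1 was at 19.5, 20.4, 17.1, 17.6 and 19.8 in wild-type and at 20.1, 17.5, 15.1, 16.7 and 18.2 in Prss57-/- BMMCs. Library 3 was the highest of all 10 BMMC libraries for Atp6v1g2 and Atp6v0b and the lowest for Atp6v1g1. Without it, the log2 fold change of Atp6v1g2 was -0.067 (adjusted p = 0.958), and 0 genes were called but 5 had an unadjusted p under 0.05, as had 1031 of all 14162 genes. These were Cd68 (log2 fold change 0.51 ± 0.12, unadjusted p = 0.00122, adjusted p = 0.383), Atp6v0a1 (log2 fold change 0.24 ± 0.07), Tcirg1 (0.35 ± 0.12), Clcn7 (0.21 ± 0.07) and Mcoln2 (0.35 ± 0.15), all higher in Prss57-/- BMMCs, with adjusted p-values from 0.581 to 0.642 for the latter 4. The macrophage markers summed to 14210.0 to 20500.0 in these 4 Prss57-/- libraries and to 10650.0 to 15880.0 in the wild-type libraries, and their part in these values was not tested.

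The genotype effect in GMPs was also tested against that in CMPs. No gene was called in this interaction (0 of 15900 tested, of which 169, or 1.06%, had an unadjusted p under 0.05), and 0 of the genes described here had an unadjusted p under 0.05. The smallest was that of Ctns (difference of log2 fold changes 0.28 ± 0.18, with an unadjusted p-value of 0.142 from edgeR).

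**Figure D5:**
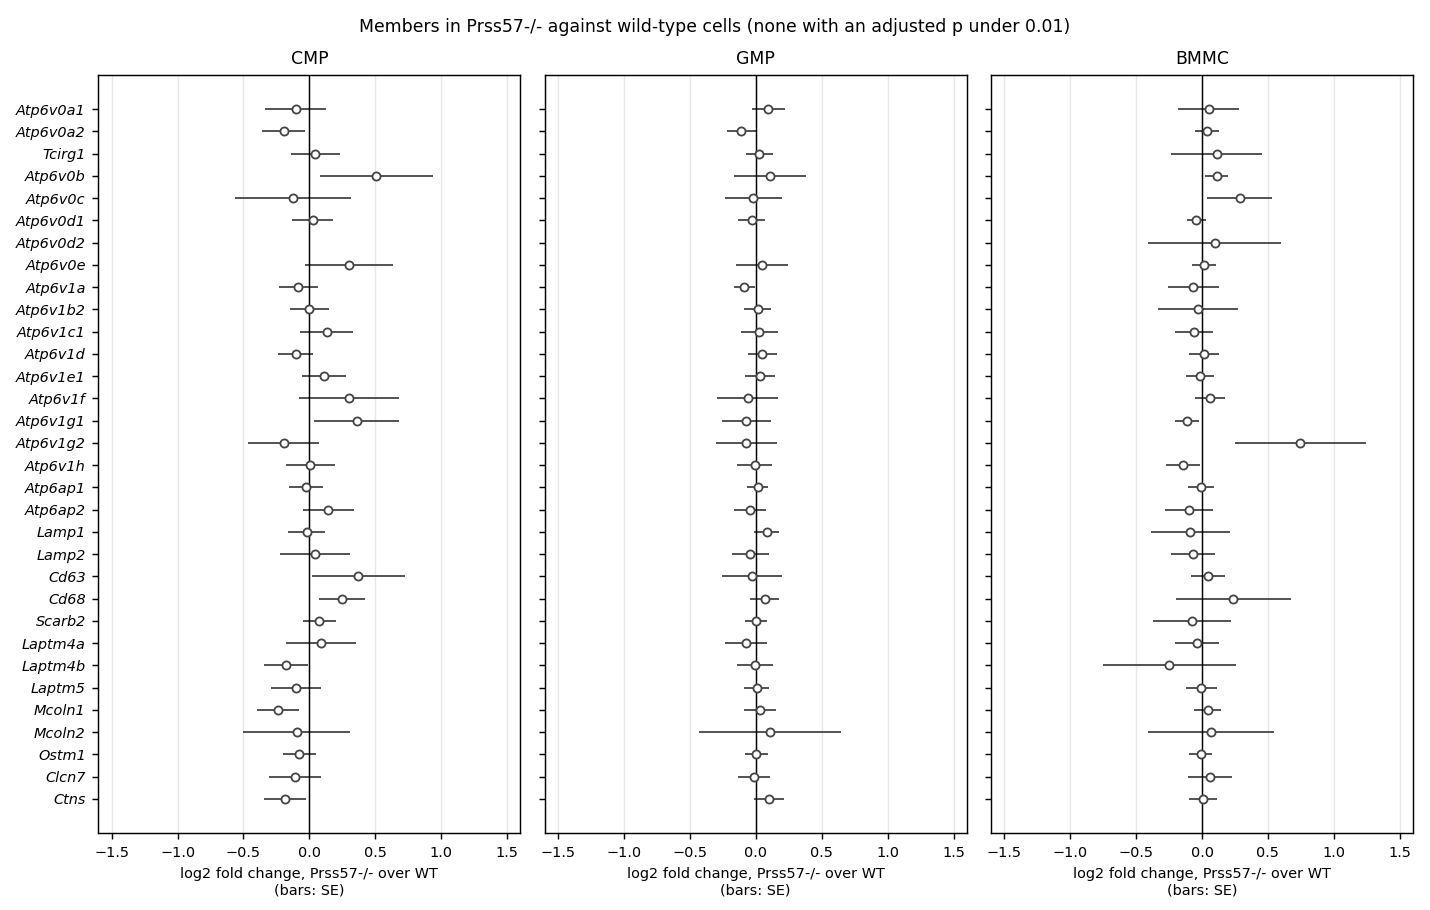
Log2 fold change of Prss57-/- over wild-type cells with its SE in CMPs, GMPs and BMMCs for the genes tested in each. All 31 points of the GMPs lie between -0.11 and 0.11, and Atp6v1g2 has the largest difference in BMMCs.

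A wider list of 71 lysosome and V-ATPase genes was set beside these 34. In wild-type GMPs against CMPs, 12 of 66 tested were higher and 3 lower (10.8% and 10.1% of all genes), and in Prss57-/- cells 5 of 64 were higher and 2 lower (4.98% and 4.85%). In BMMCs against GMPs, 42 of 66 were higher and 10 lower in wild-type cells (37.5% and 36.9% of all genes), and 39 and 8 in Prss57-/- cells (32.2% and 31.1%). In BMMCs, 17 of 25 other channels and transporters, 10 of 12 other membrane proteins, 6 of 10 assembly factors and 7 of 15 genes of lysosome signalling and positioning were higher in wild-type cells, and 16, 8, 6 and 7 of these in Prss57-/- cells. In the same order, 3, 0, 2 and 4 genes were lower in wild-type and 2, 0, 2 and 4 in Prss57-/- BMMCs. In GMPs against CMPs, the same sublists held 3, 3, 1 and 2 higher genes in wild-type cells and 1 each in Prss57-/- cells. Their lower genes numbered 1, 0, 1 and 1 in wild-type and 0, 0, 1 and 1 in Prss57-/- cells. The 4 remaining V-ATPase subunits were tested at most in 1 gene and never called. Among the genes of this list that were called, the largest increases from CMPs to GMPs were those of Tfec and of the proton-coupled amino acid transporter Slc36a1 in wild-type cells (log2 fold change 1.77 ± 0.16 and 1.71 ± 0.17), and of Slc36a1 and Dmxl2, a component of the rabconnectin complex that helps to assemble the V-ATPase, in Prss57-/- cells (1.62 ± 0.20 and 1.55 ± 0.28). The mucolipin Mcoln3 was called lower in wild-type GMPs, but it had 1 to 14 reads per wild-type GMP library against 48 to 60 in wild-type CMPs and was too low in GMPs to be tested among them. The largest decreases of the other genes called were those of Tmem9 (-1.41 ± 0.19) in wild-type and of Tmem9 (-1.64 ± 0.30) and the Rag GTPase Rragb (-1.17 ± 0.24) in Prss57-/- cells. Rragd, a GTPase of nutrient signalling at the lysosome, and Gpr137b were called higher in BMMCs than in GMPs. They had only 0 to 5 and 0 to 10 reads per GMP library against 38 to 636 and 205 to 973 per BMMC library, so that no fold change is given. Lamtor4, a subunit of the Ragulator complex, and Rogdi fell most among genes of this wider list called in this step (log2 fold change -1.81 ± 0.12 and -1.64 ± 0.13 in wild-type, and -1.44 ± 0.24 and -1.50 ± 0.17 in Prss57-/- cells).

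The 4 MiT factors differed among themselves. Mitf, which is needed for mast cell development, was at 0.427, 0.274, 0.4096 and 0.3598 in wild-type CMPs, 1.11, 0.9003, 0.861 and 1.22 in wild-type GMPs and 24.7, 29.9, 27.7, 30.2 and 26.5 in wild-type BMMCs. It was at 0.141 to 0.597 in Prss57-/- CMPs, 0.984 to 1.42 in Prss57-/- GMPs and 23.9 to 34.1 in Prss57-/- BMMCs. The steps did not overlap, and all were called (wild type, GMP over CMP: log2 fold change 1.49 ± 0.21, adjusted p = 0.000393, and BMMC over GMP: log2 fold change 4.67 ± 0.14, adjusted p = 5.49e-11) except that from CMP to GMP in Prss57-/- cells (adjusted p = 0.0293). Tfec was higher in GMPs than in CMPs in both genotypes and lower in wild-type BMMCs than in GMPs (log2 fold change -0.90 ± 0.13), and it was at 35.1, 36.1, 3.73, 45.7 and 52.3 in Prss57-/- BMMCs, where library 3 was the lowest. Tfe3 was higher in BMMCs than in GMPs in both genotypes (log2 fold change 1.91 ± 0.19 and 1.81 ± 0.18). Tfeb was called in wild-type GMPs against CMPs alone (log2 fold change 0.80 ± 0.16), and the difference between the genotypes in this step was not called in the interaction. None of the 4 factors was called between genotypes in any cell type.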

How the data were processed

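RNA was sequenced from 26 libraries (stranded total RNA, single 50-base reads). Alignment to GRCm38 was done by the authors with GSNAP within the HTSeqGenie package, and they counted reads that aligned uniquely within exons. The deposited files hold raw counts per gene. They also hold normalized RPKM, which the authors made from the counts, the gene length and a size factor per library. The version of GSNAP, the annotation and the use of strand in counting are not given in the sources used here. Alignment and counting were not repeated.

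The counts of all genes were tested with edgeR 4.0.16 (quasi-likelihood test, robust, TMM normalization, filterByExpr) in R 4.3.3, with Benjamini-Hochberg adjustment of p-values over all genes tested. Genes were called at an adjusted p under 0.01, and calls of at least 2-fold, the study's criterion, were counted beside them. Errors of log2 fold changes are SEs implied by the F statistic of edgeR, that is the size of the log2 fold change over the square root of F. The groups of each comparison were fitted alone, and the interaction in the 16 GMP and CMP libraries. An exact permutation test (two-sided, scipy 1.17.1) was run on levels of single genes. Tables were made with pandas 2.3.3 and numpy 2.4.6 in Python 3.11.15, and figures with matplotlib 3.10.9. The fits were tested on simulated data with 200 changed genes.

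Alternatives were DESeq2 1.42.0, limma 3.58.1 voom (the study's method), RLE size factors, no filter, at least 10 counts in every library, all 26 libraries in 1 fit, the replicate number as a block, an adjusted p under 0.05, a fold change of at least 2, and each library left out in turn. Same-numbered libraries did not all deviate together, so the number is taken as a name. Their mean correlation was above that of other pairs in GMPs against CMPs (0.133 against -0.0473 in wild-type, 0.183 against -0.0589 in Prss57-/- cells). It was so too between the genotypes in CMPs (0.156 against -0.0559). Between the genotypes in GMPs and in BMMCs, and in Prss57-/- BMMCs against GMPs, it was below. Whether they share an animal or a sort was not tested.

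The 34 genes, the wider list and the lists of cell type markers were chosen with earlier results of these data known. In each comparison of cell types, values in every library are given for up to 6 genes called in both genotypes in each direction with the largest mean log2 fold change, and for genes called in neither. In each comparison of genotypes they are given for genes called, or for the 3 with the smallest p. Forms of 1 subunit, the 2 genes of the wider list that changed most in each direction, the MiT factors and Prss57 are also named, and other members by their role. Gene positions and overlaps are from GENCODE M21 and promoters from RefSeq (GRCm38.p6). Intervals and floors of 3 reads cover counting error only.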

Additional observations from a re-analysis of the deposited data

Results flagged for a closer look

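Levels of the 34 genes were searched for single libraries far from the others of their group of 4 or 5. Of 196 groups of values examined, 17 held such a library, where chance gives about 1 in 20.

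Wild-type GMP library 1 accounted for 7 of the 17, and was the highest of its group in each: Atp6v1f at 60.3 normalized RPKM (next 39.0), Atp6v1g1 at 12.6 (next 8.97), Lamp2 at 58.3 (next 41.1), Cd63 at 230.3 (next 144), Laptm4a at 127 (next 87.9), Laptm4b at 8.61 (next 6.63) and Mcoln2 at 0.581 (next 0.203). Without this library, 14 genes were higher and 2 lower in wild-type GMPs than in CMPs (17.1% and 16.3% of all genes), against 13 and 2 with it (10.8% and 10.1%).

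In Prss57-/- BMMC library 3, Atp6v1g2 was at 6.68 with the next library at 1.58. The other levels of that library that lay outside the range of its group did not stand out in this search, because the 4 other Prss57-/- BMMC libraries also differed among themselves.

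In wild-type CMPs, Atp6v1g1 was low in library 3 (7.94, next 12.4), Cd68 was low in library 1 (12.7, next 17.5), Lamp1 was high in library 4 (207.9, next 200.1) and Lamp2 was high in library 2 (56.7, next 41.7). In Prss57-/- CMPs, Atp6v1b2 was low in library 1 (62.9, next 81.2), Mcoln2 was high in library 2 (3.99, next 1.57), and Atp6v0d2 was at 0.0842 in library 3 (14 reads) and at 0 in the others. Atp6v1a was high in Prss57-/- GMP library 4 (28.8, next 27.4) and Atp6v0a1 in wild-type BMMC library 3 (58.0, next 52.7). The gaps of Lamp1 in wild-type CMPs and of Atp6v1a in Prss57-/- GMPs were small beside the levels themselves.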

How the results depend on the processing

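The counts of genes called were recomputed under the alternatives and with each library left out. The counts of 0 between genotypes were 0 under every one, and so were those in the interaction, for which the looser and the 2-fold threshold and the fit of all 26 libraries were not run. In wild-type cells, the genes higher in BMMCs than in GMPs numbered 26 to 27 without 1 library, and the 1 lower gene was called under every alternative. In Prss57-/- cells they numbered 19 to 26 (26 without BMMC library 3), with 0 to 1 lower. The count over all genes moved as well. It was 4296 of 14724 without BMMC library 1, which gave 19, and 5456 of 14894 without BMMC library 3, against 4803 of 14929 in the main test. Wild-type GMPs against CMPs gave 8 to 14 higher and 1 to 2 lower genes without 1 library, and Prss57-/- GMPs against CMPs 2 to 9 and 0 to 2. At a fold change of at least 2, the higher genes were 4 in wild-type GMPs against CMPs (1 lower), 13 in wild-type BMMCs against GMPs and 14 in Prss57-/- BMMCs against GMPs. For Prss57-/- GMPs against CMPs, DESeq2 gave 13 higher genes (1509 of all 14959, against 745 in the main test), an adjusted p under 0.05 gave 13 (2 lower; 1588 and 1634 of all genes), and 1 fit of all 26 libraries gave 10 (2 lower; 1606 of all 16758). The latter fit left 1 lower gene in wild-type GMPs. The 1 lower gene in Prss57-/- GMPs became 0 with limma voom and with at least 10 counts in every library, and the 1 in Prss57-/- BMMCs became 0 with the latter filter, which removes genes with few reads. With the replicate number as a block, Prss57-/- BMMCs against GMPs (libraries 1 to 4) gave 14 higher and 0 lower genes (3478 and 3317 of all 14727). The same libraries without the block, that is without BMMC library 5, gave 19 and 1 (4329 and 4176 of all 14727). The main test, with all libraries, called 4803 and 4640 of 14929. With the block, no other count moved by over 1.5 times. The numbers of the block are taken as shared names. Same-numbered libraries correlated at -0.308 to 0.528, and at most 3 of a group's libraries correlated best with their own number. The cause of these changes was not tested.

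Of 1254 values of named genes under alternatives, 1253 kept their direction. Without Prss57-/- BMMC library 3, Atp6v1g2 in Prss57-/- against wild-type BMMCs went from a log2 fold change of 0.75 to -0.067 (-0.067 to 0.942 without 1 library). Of the calls, 6 of 13 higher and 1 of 2 lower genes in wild-type GMPs against CMPs held in every fit at this threshold, 2 of 4 and 0 of 1 in Prss57-/- cells, 23 of 26 and 1 of 1 in wild-type BMMCs against GMPs, and 14 of 23 and 0 of 1 in Prss57-/- cells. The depth of 18627626 to 53264762 reads limits the genes with few reads, Mcoln2 in GMPs (10 to 79 reads) and Atp6v0d2 in progenitors (0 to 17 reads).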

Other observations

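In Prss57-/- CMP library 2, the 17 genes that were at their highest of the 4 Prss57-/- CMP libraries had a median of 3288 exon bases, and the 10 genes at their lowest had one of 4947, against 3712 for all 31 genes at 1 or more. The corresponding medians were 3001 and 4603 in wild-type GMP library 1 (16 and 9 genes, 3750.0 for all 30), and 3682 and 5924 in Prss57-/- GMP library 4 (19 and 4 genes). These counts and medians were not made over all genes of the series. In all 3 libraries the genes at their highest included Atp6v0b, Atp6v0d1, Atp6v0e, Atp6v1f, Atp6v1g1, Lamp2, Cd63 and Laptm4a, and those at their lowest included Atp6v0a1, Clcn7 and Ctns. The 10 most abundant genes held 10.97% of reads in both Prss57-/- CMP library 2 and wild-type GMP library 1, 4.61% to 7.53% in the other CMP libraries and 8.10% to 10.17% in the other GMP libraries.

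Atp6ap1, Atp6ap2 and Lamp2 lie on the X chromosome. They were measured in female progenitors and male BMMCs, and were at 258 ± 19.5, 67.9 ± 6.94 and 91.6 ± 11.98 normalized RPKM (SD, n = 5) in wild-type BMMCs against 103 ± 2.96, 74.2 ± 10.7 and 44.9 ± 8.98 (SD, n = 4) in wild-type GMPs.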
